A study of Mus musculus with 12 samples.

Results

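The genes described here are 10 regulators of the multiciliated cell program that act before or beside Foxj1: Gmnc, Mcidas, E2f4, E2f5, Trp73, Myb, Foxn4, Ccno, Deup1 and Cdc20b. They were taken by gene symbol, and all 10 had a row among the 51826 entries of the sperm table and among the 23502 entries of the testis table. The data were poly(A) RNA-seq libraries of mice, with the mutant alleles made on C57BL/6J, in 4 groups of 3 biological replicates. Mature sperm of the cauda epididymis came from WT and Xap5l KO (XAP5L KO in the labels) mice at postnatal day 56 (P56), and the Xap5l KO is a CRISPR/Cas9 allele carried in every cell. Whole testes came from WT and Xap5 cKO (XAP5 cKO) mice at P16, and the Xap5 cKO combines a floxed Xap5 allele with a Cre knocked into Stra8 (Stra8-EGFPCre), a gene switched on in germ cells around entry into meiosis, so that the somatic cells of those testes keep Xap5. The labels call the testis controls WT, while the study describes the controls of this line as males with the floxed allele (Xap5 fl/Y). Whether a library pooled animals is not given in the sources used here.

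In multiciliated cells of the airway, brain ventricles and efferent ducts, Notch signalling is first relieved, the geminin-related coactivators Gmnc and Mcidas bind E2f4 or E2f5 with a Dp partner, and these complexes switch on Myb, Trp73, Ccno, Deup1, Cdc20b and finally Foxj1 and the Rfx factors. The early steps serve to make many centrioles in a cell that no longer divides, and Foxj1 and Rfx factors then turn on the genes of motile cilia. A spermatid builds a single flagellum and does not amplify centrioles in this way, while Rfx genes are known to act in the male germ line.

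Levels are given as counts scaled to library size by TMM (CPM) and, where genes are set beside each other, as CPM per kb of merged exon. Library totals ran from 32251198 to 52308452 counts. Xap5l, listed as Fam50b, fell in Xap5l KO sperm (log2 fold change -5.15, adjusted p = 0.0118 by the edgeR quasi-likelihood F-test, Benjamini-Hochberg adjusted as everywhere here). Xap5, listed as Fam50a, was lower in Xap5 cKO testes by less than the 2-fold threshold (log2 fold change -0.33, adjusted p = 0.0495 by the same test). Its adjusted p lay between 0.0421 and 0.17 in the alternatives run. Xap5l was also far lower in Xap5 cKO testes (log2 fold change -6.48, adjusted p = 8.09e-05 by the same test). It had 6, 0 and 7 counts there. Xap5 was lower in Xap5l KO sperm by less than 2-fold (log2 fold change -0.76, adjusted p = 0.0393 by the same test). That adjusted p lay between 0.0154 and 0.193 in the alternatives run. The cause of these changes was not tested. In the sperm libraries, elongating spermatid markers led by Smcp summed to between 47800 and 140000 CPM, while the 10 leukocyte markers summed to between 2650 and 5040 CPM, most of it from Cd52, which is also known as a product of the epididymis, and epididymal epithelium markers led by Crisp1 to between 4440 and 8470 CPM.

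Of the 10 genes, 3 lie together on chromosome 13, 1 after the other on the plus strand of GRCm38. Ccno is at chr13:112987802-112990777, Mcidas at chr13:112993845-113000394 and Cdc20b at chr13:113035111-113091195. The gap between Ccno and Mcidas is 3067 bases and that between Mcidas and Cdc20b is 34716 bases. Cdc20b carries hairpins of the miR-449 family in an intron, and this family is known to act with its relatives of the miR-34 family on Ccp110, a gene for a protein that caps centrioles. The mature forms are shown because they share bases 2 to 8, the seed, given here in capitals. The sequences and positions are those of RefSeq on GRCm38.p6. miR-449c-5p is at chr13:113036008-113036028 and miR-449a-5p at chr13:113037549-113037570, both in the Cdc20b intron. miR-34a-5p is at chr4:150068473-150068494 outside the other annotated genes, and miR-34b-5p is on the minus strand at chr9:51103610-51103632 in an intron of Btg4.
mmu-miR-449c-5p: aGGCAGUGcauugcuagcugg
mmu-miR-449a-5p: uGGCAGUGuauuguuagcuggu
mmu-miR-34a-5p: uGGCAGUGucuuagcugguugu
mmu-miR-34b-5p: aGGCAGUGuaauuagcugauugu
Poly(A) libraries do not measure mature miRNAs, and the Mir449a, Mir449b and Mir449c hairpins had at most 1 count in any sperm library.

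Before genotypes were compared, each gene was set against a background of 35 genes typical of other organs, such as liver, muscle and retina. A gene counted as above background in a group when, in each of the 3 libraries, it had more than 3 counts and a CPM per kb above the 90th percentile of those 35 genes. In WT sperm, 4 of the 10 genes passed, Deup1, E2f4, E2f5 and Ccno, and in Xap5l KO sperm the same 4 and Myb passed. In WT and Xap5 cKO testes only E2f4 and E2f5 passed. Of all entries with an annotated exon length, 25.0% passed in WT sperm and 51.4% in WT testes. The bar was higher in testes, between 1.45 and 2.21 CPM per kb in WT libraries against 0.797 to 0.938 in WT sperm, as a few of the listed genes had substantial counts there, above all Actn3 at 16.8 and Ahsg at 6.66 CPM per kb in WT. With the median of the same 35 genes as the bar, a choice made after seeing the data, 7 genes passed in each sperm group, 7 in WT testes and 5 in Xap5 cKO testes. In both sperm groups these were the 4 above with Myb, Mcidas and Cdc20b. Ccno, Foxn4 and Cdc20b passed it in both testis groups, and Mcidas and Deup1 passed it in WT testes but not in Xap5 cKO testes. Trp73 and Gmnc did not pass it in all 3 libraries of any group, nor did Foxn4 in sperm or Myb in testes, though single libraries of Trp73, Gmnc and Myb were above it.

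**Figure D1:**
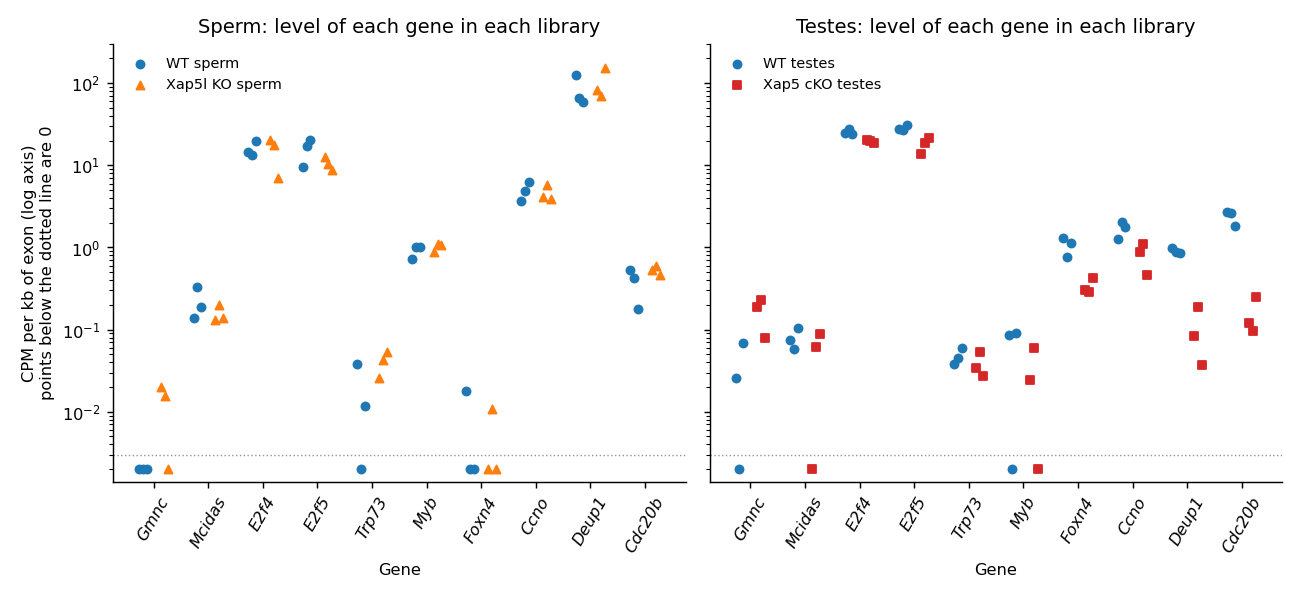
CPM per kb of exon, on a log axis, of the 10 genes in each of the 6 sperm libraries (left) and the 6 testis libraries (right), 1 point per library, with libraries at 0 drawn below the dotted line. Deup1 stands highest in sperm, at 59.4 to 151 CPM per kb, and E2f4 and E2f5 stand highest in testes, while Trp73 lies below 0.1 CPM per kb in every library and Gmnc does so in all libraries but Xap5 cKO replicates 1 and 2.

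The order of the genes differed between the tissues. In WT sperm Deup1 came first at 83.3 ± 36.1 CPM per kb (SD, n = 3), then E2f4 at 15.9 ± 3.48 and E2f5 at 15.7 ± 5.44, whose ranges overlapped, then Ccno at 4.95 ± 1.3, Myb at 0.915 ± 0.172, Cdc20b at 0.379 ± 0.182 and Mcidas at 0.22 ± 0.0982. Cdc20b and Mcidas overlapped, and the remaining Trp73, Foxn4 and Gmnc were at or below 0.0167 CPM per kb on average, each overlapping with its neighbour. In WT testes E2f5 (28.6 ± 2.3 CPM per kb) and E2f4 (25.5 ± 1.79) overlapped at the top. Cdc20b (2.4 ± 0.472), Ccno (1.69 ± 0.39), Foxn4 (1.07 ± 0.265) and Deup1 (0.905 ± 0.0811) followed, each overlapping with its neighbour. Mcidas, Myb, Trp73 and Gmnc were below 0.08 CPM per kb on average and overlapped in the same way.

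The same shift can be read from ranks, which do not depend on the scaling of the separately deposited tables. Ranks were taken by CPM per kb within each library over the 20569 genes found in both tables, as the percentile from the lowest gene. Deup1 ranked between 97.7 and 98.6 in WT sperm and between 39.9 and 40.6 in WT testes. Ccno ranked between 73.2 and 81.2 in WT sperm and between 42.6 and 47.2 in WT testes, and Myb between 44.8 and 49.6 and between 10.4 and 26.4. Foxn4 went the other way, from between 8.04 and 18.1 in WT sperm to between 39.0 and 42.8 in WT testes. E2f4 and E2f5 ranked between 87.6 and 93.7 in both WT groups. Tissue, age and table differ together here, so these ranks are a description without a test.

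In P16 testes, the centriole amplification genes Cdc20b, Deup1 and Ccno and the forkhead gene Foxn4 were lower in Xap5 cKO than in WT mice, and the upstream coactivators Gmnc and Mcidas were scarce in both genotypes. Of the 10 genes, 8 had enough counts to be tested, and 4 of those, Cdc20b, Deup1, Foxn4 and Ccno, were downregulated (adjusted p-value under 0.05 and more than 2-fold lower). Cdc20b and Deup1 reached 10 counts in all 3 libraries only in WT and Gmnc only in Xap5 cKO, so these entered the test through the group where they were high. With at least 10 counts required in every library, 2 genes were called, Foxn4 and Ccno. None of the 4 was above the 90th percentile background in either testis group. Of all 16821 genes tested, 10.9% were downregulated and 4.15% upregulated by the same rule. E2f4 and E2f5 were also lower by the adjusted p-value but by less than 2-fold, which makes 6 of 8 lower at any fold, against 28.1% of all genes. The 2 genotypes did not overlap for 7 of the 8 tested genes, against 62.3% of all genes. The median log2 fold change was -1.06 over the 8 tested genes and -0.01 over all genes. These shares and the median include Cdc20b, Deup1 and Gmnc, so they are a description and no support for a shift of the set. Ccno, E2f4, E2f5 and Foxn4 remained tested with at least 10 counts in every library. Their log2 fold changes were then -1.06, -0.4, -0.68 and -1.66. With 3 libraries on each side, permuting labels for 1 gene exactly could reach no p under 0.1, so the p-values here come from the model fitted across all genes.

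**Figure D2:**
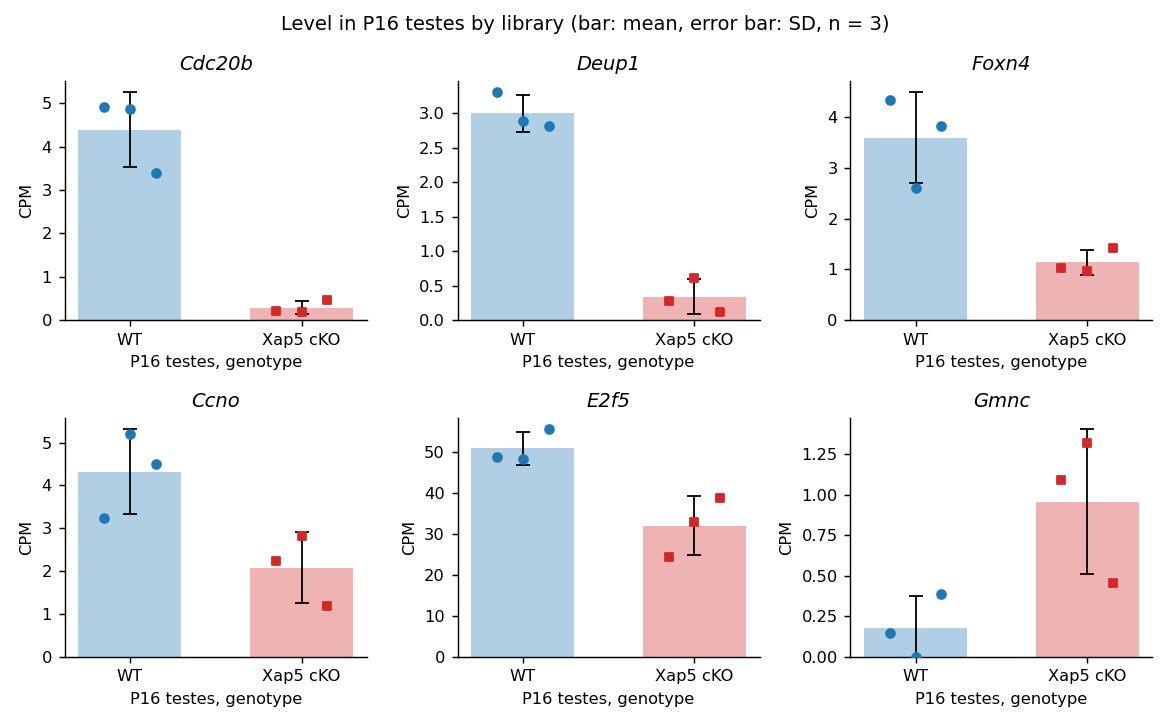
CPM in P16 testes of 6 of the genes in each WT (blue circles) and Xap5 cKO (red squares) library, with bars for the mean and error bars for the SD of 3 libraries, on linear axes from 0. The WT and Xap5 cKO libraries do not overlap in any panel, with Gmnc higher and the other 5 genes lower in Xap5 cKO. Of all genes tested in testes, 62.3% did not overlap either. Among the genes not shown, Myb, Mcidas and Trp73 overlapped and E2f4 did not.

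Cdc20b, a relative of the mitotic regulator Cdc20 that helps release newly made centrioles from deuterosomes, had the largest change. Its level was 4.91, 4.86 and 3.39 CPM in WT testes and 0.218, 0.176 and 0.456 CPM in Xap5 cKO testes. The lowest WT library stood well above the highest Xap5 cKO library. The log2 fold change was -3.94 (SE 0.423, adjusted p = 8.44e-05 in edgeR). An antisense gene, 4930563N14Rik, shares 197 exon bases with Cdc20b, as Trp73os shares 280 with Trp73, Gm26577 shares 559 with Myb and 1810022K09Rik shares 26 with E2f5. The use of strand in counting is not given in the sources used here, and without it reads of those stretches cannot be told apart.

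Deup1 encodes the core of the deuterosome, the body on which multiciliated cells build most of their centrioles. It had 3.3, 2.88 and 2.81 CPM in WT testes and 0.28, 0.616 and 0.121 CPM in Xap5 cKO testes. The WT libraries were close to each other and the Xap5 cKO libraries were all far below them. The log2 fold change was -3.12 (SE 0.522, adjusted p = 0.000929 by the same test). In Xap5 cKO libraries this rested on 9, 21 and 4 counts, so the exact size of the fall is loosely set, with a 95% interval from -4.3 to -1.94.

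Foxn4, a forkhead factor known to promote multiciliated cell formation together with Foxj1 in amphibian skin, was at 4.35, 2.61 and 3.84 CPM in WT testes and 1.03, 0.969 and 1.43 CPM in Xap5 cKO testes. All WT libraries were above all Xap5 cKO libraries. This gave a log2 fold change of -1.65 (SE 0.329, adjusted p = 0.0025 by the same test). In sperm, no library held more than 2 counts of it.

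Ccno, an atypical cyclin needed for making centrioles in large numbers, was at 3.25, 5.21 and 4.5 CPM in WT testes and 2.24, 2.82 and 1.18 CPM in Xap5 cKO testes. The groups did not overlap, but the gap between the lowest WT and the highest Xap5 cKO library was small. That is a log2 fold change of -1.05 (SE 0.356, adjusted p = 0.0327 by the same test), close to the 2-fold threshold. The call did not hold when certain libraries were left out: its adjusted p in edgeR became 0.113 without WT replicate 2, 0.0583 without WT replicate 3, 0.0674 without Xap5 cKO replicate 1 and 0.0729 without Xap5 cKO replicate 3. The log2 fold change of Ccno lay between -1.33 and -0.78 with 1 library left out.

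E2f4 and E2f5, the DNA-binding partners of Gmnc and Mcidas and repressors of the cell cycle in other settings, were the most abundant of the 10 in testes. E2f4 stood at 61.1, 67.5 and 59.0 CPM in WT and 49.3, 48.5 and 45.6 CPM in Xap5 cKO testes, which is a log2 fold change of -0.39 (SE 0.0848, adjusted p = 0.00422 in edgeR). E2f5 stood at 48.8, 48.4 and 55.7 CPM in WT and 24.5, 33.0 and 38.8 CPM in Xap5 cKO testes, which is a log2 fold change of -0.67 (SE 0.157, adjusted p = 0.00605 by the same test). Neither gene overlapped between the genotypes, and neither met the 2-fold threshold. Genes whose levels moved most like E2f4 over the 12 libraries, of 13959 genes tested in both tables and centred within each, were Ubap2l (Pearson's r 0.982), Ubald1 (0.977) and Med15 (0.973), and those most like E2f5 were Brix1 (0.949), Plekhh1 (0.945) and Dlg1 (0.938). Between E2f4 and E2f5 themselves r was 0.539, and all these values share libraries and scaling and are given without a test.

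The upstream coactivators were scarce. Gmnc, the first of the cascade, was counted 5, 0 and 14 times in WT testes and 35, 45 and 15 times in Xap5 cKO testes. It was the single gene of the 10 with a higher level in Xap5 cKO, and the groups met closely at 14 and 15 counts. The fit gave a log2 fold change of 2.39 with a 95% interval from 0.28 to 4.5 and did not pass (SE 0.934, adjusted p = 0.0567 in edgeR). The adjusted p was 0.0449 with DESeq2 and 0.022 in edgeR without WT replicate 3, and it lay between 0.0555 and 0.17 in the other alternatives. Mcidas, which acts just after Gmnc, had 6, 5 and 9 counts in WT and 0, 5 and 7 counts in Xap5 cKO testes and was too low to be tested.

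Trp73, the p53 relative that turns on Foxj1 and other ciliary genes, had 7, 9 and 12 counts in WT and 6, 10 and 5 counts in Xap5 cKO testes and was not tested either. Myb, a cell-cycle transcription factor active early in centriole amplification, had 26, 0 and 29 counts in WT and 7, 18 and 0 counts in Xap5 cKO testes. The Myb groups overlapped, and the log2 fold change of -1.06 had a 95% interval from -3.93 to 1.81 (adjusted p = 0.51 in edgeR). Zeros among such values are common in the testis table: of entries with a median of 10 to 40 counts, 20.75% had a 0 in at least 1 library, against 6.16% in the sperm table, so a 0 there need not mean that no read was present.

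**Figure D3:**
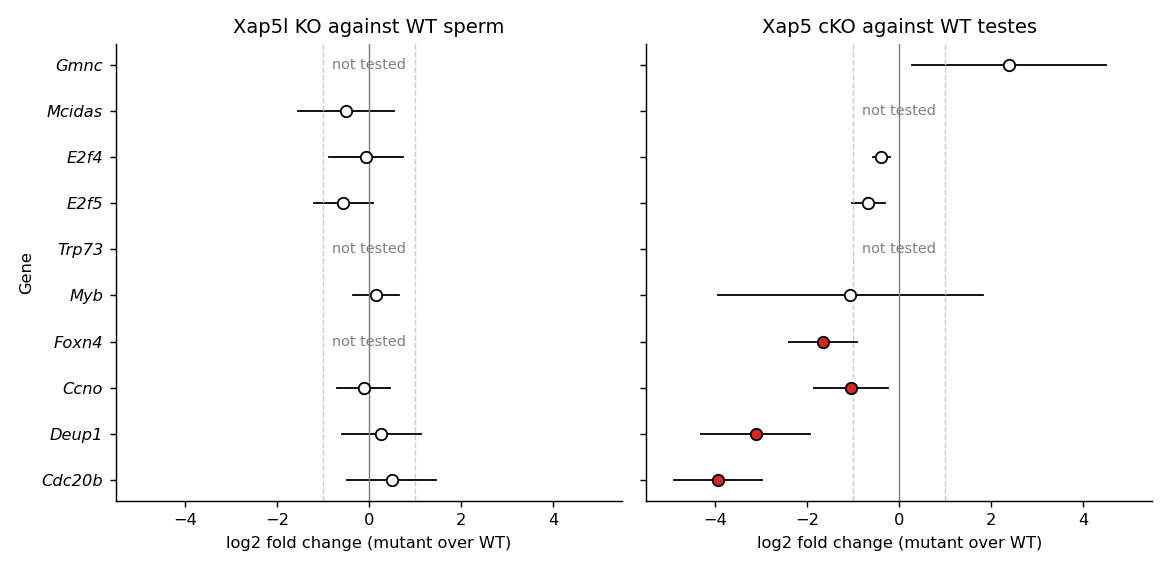
Log2 fold change of each tested gene (point) with its 95% interval (line), mutant over WT, in sperm (left) and testes (right), with dashed lines at 2-fold and red points for genes that were called. The 4 red points, Cdc20b, Deup1, Foxn4 and Ccno, are all in testes, and every sperm interval spans 0.

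Markers of germ cells and of somatic cells also differed between these genotypes, and in bulk tissue fewer cells of a type and less RNA per cell cannot be told apart. Pachytene spermatocyte markers, led by Hspa2, summed to between 1000 and 2020 CPM in WT and between 186 and 254 CPM in Xap5 cKO testes, and 6 of the 8 tested were downregulated. Leptotene and zygotene markers, led by Sycp3, summed to between 1320 and 1570 CPM in WT and between 642 and 850 CPM in Xap5 cKO, with 7 of 8 downregulated. Spermatogonia markers, led by Uchl1, summed to between 891 and 966 CPM and between 556 and 604 CPM, with 4 of 11 downregulated. Sums of somatic markers moved the other way. Sertoli markers, led by Clu, summed to between 4690 and 5120 CPM in WT and between 8200 and 9710 CPM in Xap5 cKO. Clu alone was at 3200 to 3550 CPM in WT and 5510 to 7100 CPM in Xap5 cKO. Of the 9 Sertoli markers 1 was upregulated, and 8 were higher by the adjusted p-value at any fold. Leukocyte markers, led by Lyz2, summed to between 78.0 and 108 and between 162 and 220 CPM, with 6 of 8 tested upregulated. Leydig markers, led by Insl3, summed to between 193 and 336 and between 389 and 737 CPM, with 3 of 6 upregulated. None of 5 peritubular myoid and 5 endothelial markers was upregulated. The part of these shifts in the lower Cdc20b, Deup1, Foxn4 and Ccno and in the Gmnc values was not tested. Among WT testes, replicate 3 had the lowest pachytene sum and also the lowest Cdc20b, Deup1 and E2f4 levels, while the lowest Ccno was in replicate 1 and the lowest Foxn4 and E2f5 were in replicate 2.

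Around the chromosome 13 locus the neighbours did not move as 1 block. Gpx8, a glutathione peroxidase gene that lies within Cdc20b on the opposite strand, at chr13:113042753-113046410, rose from 10.5 ± 1.84 to 23.2 ± 1.53 CPM (SD, n = 3) in Xap5 cKO testes (log2 fold change 1.15, adjusted p = 0.000328 in edgeR). Mtrex and Dhx29, on the other side of Ccno, were lower by less than 2-fold, with log2 fold changes of -0.67 and -0.32 (adjusted p = 7.4e-05 and 0.00505). Mcidas, between Ccno and Cdc20b, was at 0.189 ± 0.0572 CPM in WT and 0.12 ± 0.109 CPM in Xap5 cKO and was not tested.

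**Figure D4:**
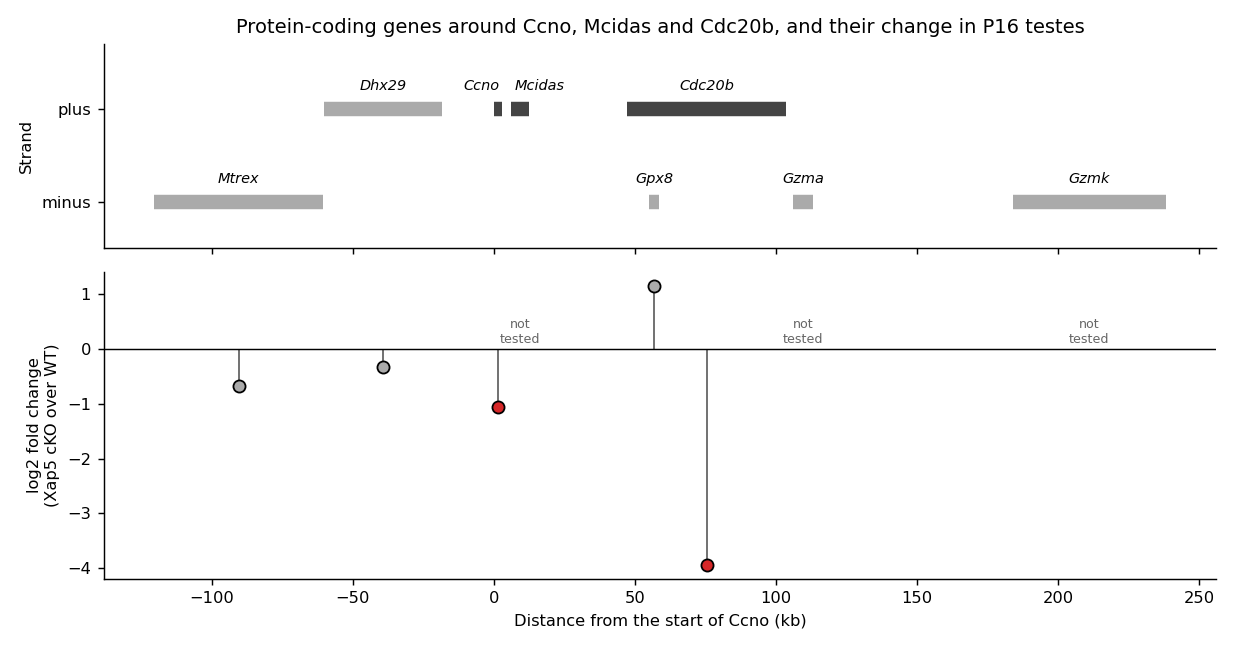
Protein-coding genes around Ccno, Mcidas and Cdc20b by strand, against the distance in kb from the start of Ccno (top), with the log2 fold change of each tested gene in P16 testes, Xap5 cKO over WT, at the middle of the gene (bottom, red for Ccno and Cdc20b). Cdc20b and Gpx8 overlap in position and lie on opposite sides of 0.

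Promoters of the 4 downregulated genes are shown so that they can be read side by side, since all 4 were lower in Xap5 cKO. RefSeq gave promoters for 8 of the 10 genes, 11 in all. Each sequence below is the 250 bases before the start of the promoter entry on GRCm38.p6, 5′ to 3′ on the strand of the gene. They are from chr13:112987552-112987801 for Ccno, chr13:113035129-113035378 for Cdc20b, chr9:15627847-15628096 (minus strand, the first of 2 entries) for Deup1 and chr5:114273762-114274011 (minus strand) for Foxn4. These starts can differ from the GENCODE positions: the Cdc20b stretch lies within that gene, and those of Deup1 and Foxn4 overlap theirs in part.
Ccno: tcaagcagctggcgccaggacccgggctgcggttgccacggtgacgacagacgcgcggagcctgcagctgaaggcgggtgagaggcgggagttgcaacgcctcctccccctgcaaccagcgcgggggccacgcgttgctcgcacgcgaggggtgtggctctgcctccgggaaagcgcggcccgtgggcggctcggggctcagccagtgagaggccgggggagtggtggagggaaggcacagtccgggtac
Cdc20b: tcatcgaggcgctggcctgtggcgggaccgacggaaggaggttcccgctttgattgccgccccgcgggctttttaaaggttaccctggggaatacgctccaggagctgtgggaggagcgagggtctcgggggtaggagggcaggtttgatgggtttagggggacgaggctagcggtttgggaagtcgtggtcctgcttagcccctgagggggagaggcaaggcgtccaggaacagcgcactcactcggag
Deup1: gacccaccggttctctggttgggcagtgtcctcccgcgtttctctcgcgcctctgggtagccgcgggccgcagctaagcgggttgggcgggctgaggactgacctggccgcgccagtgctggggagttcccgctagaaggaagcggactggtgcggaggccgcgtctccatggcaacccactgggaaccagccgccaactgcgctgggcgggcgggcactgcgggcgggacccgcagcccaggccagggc
Foxn4: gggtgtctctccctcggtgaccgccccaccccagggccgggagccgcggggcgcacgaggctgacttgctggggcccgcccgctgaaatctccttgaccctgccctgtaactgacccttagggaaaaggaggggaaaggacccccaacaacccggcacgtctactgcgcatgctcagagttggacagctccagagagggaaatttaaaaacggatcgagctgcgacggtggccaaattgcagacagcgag
Capitals were kept for matches to the motifs searched, and these 4 hold none. All 4 were rich in G and C, at 72.4%, 63.6%, 72.0% and 62.8% of bases in the order shown. Windows of 300 bases, 250 before and 50 after the start, were searched on both strands. The GC motif GGGCGGGG was in 17.6% of all 32851 RefSeq promoter windows and in 2 of the 11 windows of the 10 genes, those of Myb and Gmnc. An E2F site spelled TTTGGCGC or TTTCGCGC was in 0.813% of all windows and in 0 of the 11. A forkhead site spelled GTAAACA was in 3.65% of all windows and in that of Myb among the 11. A missing match says only that these letters are not in the window.

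In P56 sperm, 7 of the 10 genes were tested, and 0 of these passed in either direction. Of all 20945 genes tested, 7.59% were upregulated and 1.27% downregulated in Xap5l KO. At such shares few calls would be found among 7 genes, so the 0 does not set these genes apart. The count was also 0 with DESeq2 and 0 at an unadjusted p-value under 0.05. The log2 fold changes ran from -0.56 for E2f5 to 0.49 for Cdc20b, with a median of -0.07 against -0.08 over all genes.

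Deup1, at the top of the 10 genes in sperm, stood at 413, 218 and 197 CPM in WT and 270, 229 and 498 CPM in Xap5l KO libraries. One library of each genotype stood apart from its 2 fellows, and the highest value of all was Xap5l KO replicate 3. This gave a log2 fold change of 0.27, with a 95% interval from -0.58 to 1.12 (adjusted p = 0.639 in edgeR), and it was -0.07 without Xap5l KO replicate 3. The spermatid gene Smcp was also highest in the WT library with the most Deup1 (80100 CPM, against 28200 and 37800 in the other two), but in Xap5l KO replicate 3 it was at the bottom, at 16800 CPM. In the P16 testes, from before spermatids form, Smcp was at 0 in all 6 libraries, and Deup1 was at 3.0 ± 0.269 CPM in WT (SD, n = 3).

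Ccno stood at 9.41, 12.5 and 16.1 CPM in WT and 10.5, 14.6 and 9.82 CPM in Xap5l KO sperm. The groups overlapped over most of their range. That is a log2 fold change of -0.12, with a 95% interval from -0.69 to 0.45 (adjusted p = 0.763 in edgeR). Its sign turned to 0.08 without WT replicate 3 and 0.07 without Xap5l KO replicate 3.

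E2f4 stood at 35.4, 32.6 and 48.6 CPM in WT and 50.3, 43.7 and 17.2 CPM in Xap5l KO sperm. The Xap5l KO libraries held both the highest and the lowest value, and the lowest was again replicate 3. The fit gave a log2 fold change of -0.07, with a 95% interval from -0.87 to 0.73 (adjusted p = 0.906 in edgeR), and it was 0.35 without that library. E2f5 stood at 17.2, 30.8 and 36.0 CPM in WT and 22.8, 18.7 and 15.5 CPM in Xap5l KO sperm, where the single low WT library gave the overlap. Its log2 fold change was -0.56, with a 95% interval from -1.2 to 0.08 (adjusted p = 0.197 by the same test). Without WT replicate 1 it was -0.82 with an edgeR adjusted p of 0.0467, still under 2-fold.

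Myb stood at 6.4, 9.01 and 9.11 CPM in WT and 7.82, 9.93 and 9.63 CPM in Xap5l KO sperm. The groups overlapped closely, and the 95% interval of the log2 fold change, from -0.34 to 0.66, was the narrowest among the 7 tested. Cdc20b had 32, 33 and 15 counts in WT and 34, 60 and 49 counts in Xap5l KO libraries, and Mcidas 11, 33 and 21 and 11, 26 and 19 counts. Their intervals, from -0.48 to 1.46 for Cdc20b and from -1.54 to 0.54 for Mcidas, each reach past 2-fold, as do those of Deup1 and E2f5, so for these 4 genes a change of that size lies within the interval. Gmnc had no count in any WT sperm library, where 3 counts would be between 0.0647 and 0.091 CPM, and 4, 5 and 0 counts in Xap5l KO sperm. Trp73 had 7, 0 and 3 counts in WT and 5, 13 and 17 counts in Xap5l KO sperm, and Foxn4 2, 0 and 0 and 0, 2 and 0 counts. These 3 genes did not pass the filter on low counts.

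Several marker lists differed between the sperm genotypes as well. Round spermatid markers, led by Tssk1, summed to between 98.0 and 140 CPM in WT and between 208 and 403 CPM in Xap5l KO, and 7 of 8 were upregulated. Pachytene markers, led by Ldhc, summed to between 496 and 746 CPM and between 1260 and 1500 CPM, with 4 of 9 upregulated. Leukocyte markers summed to between 4500 and 5040 CPM in WT and between 2650 and 3190 CPM in Xap5l KO, with 2 of 10 downregulated. Without Cd52 the leukocyte sum was between 809 and 858 CPM in WT and between 169 and 517 CPM in Xap5l KO. Epididymal epithelium markers summed to between 6290 and 8470 and between 4440 and 6180 CPM, and 0 of the 10 tested passed in either direction. Myb is known from blood cells and E2f4 and E2f5 from nearly every cell, and how much of their sperm counts came from other cells was not tested.

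The genes around the 10 were followed in 5 lists with 64 members: relatives of the 10, the partners of E2f factors, Notch signalling, centriole duplication, and Foxj1 with the Rfx genes. In testes 62 were tested, 16 were downregulated and none was upregulated, where 10.9% of all genes were downregulated, with a median log2 fold change of -0.43 against -0.01 for all genes. The called genes included Foxj1, the end point of the cascade, which fell from 2.38 ± 0.415 to 1.05 ± 0.502 CPM (SD, n = 3), a log2 fold change of -1.18 (adjusted p = 0.0474 in edgeR). That call was lost whichever of the 6 libraries was left out, with an adjusted p between 0.057 and 0.109. By the main background rule used for the 10 genes, Foxj1 was not above background in either testis group. It had 70 to 98 counts in WT and 16 to 44 counts in Xap5 cKO testes. Of the other 7 tested genes of that list, Rfx4 (log2 fold change -7.07), Rfx8 (-4.79) and Rfx2 (-2.55), all of the Rfx family that binds promoters of ciliary genes, were downregulated. Rfx4 and Rfx8 averaged 0.171 and 0.478 CPM in Xap5 cKO testes and lacked 10 counts in some libraries there. They entered the test through WT, where they were high, so the size of their change is no support for a shift. Rfx2 remained tested with at least 10 counts in every library.

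Of 16 tested genes of centriole duplication in testes, 4 were downregulated. These were Plk4, the kinase that starts a new centriole (log2 fold change -1.56), Sass6, which builds its cartwheel (-1.29), Ccp110, the capping protein named above (-1.99), and Ccna1, a meiotic cyclin that is also on the pachytene marker list (-2.83). Ccp110 went from 364 ± 58.1 to 91.8 ± 2.63 CPM and Plk4 from 68.8 ± 13.5 to 23.3 ± 0.425 CPM (SD, n = 3). All 4 had an adjusted p below that of Foxj1.

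Among 16 tested relatives, 4 were downregulated in testes: the repressor E2f8 (log2 fold change -1.63), Cep63, the relative of Deup1 that acts on mother centrioles (-1.5), Gmnn, the replication inhibitor geminin (-1.32), and Cdc20 (-1.0). Cdc20 stood on the 2-fold threshold itself and was called or not called by small shifts, at -0.91 without Xap5 cKO replicate 1, -0.94 without WT replicate 2 and -0.98 without Xap5 cKO replicate 2, with an adjusted p of at most 0.000888 in edgeR. So Deup1 and Cep63, and Cdc20b and Cdc20, were each lower as a pair, while Gmnn was lower and its relative Gmnc had a higher level that did not pass. How the authors' counting treated reads shared between relatives is not given in the sources used here. Of the 12 tested Notch genes, Hey1 (log2 fold change -2.07), Dll3 (-1.81) and Jag2 (-1.34) were downregulated, and of 10 E2f partners only Rbl1, a pocket protein that binds E2f4 and E2f5 (-1.29). The median log2 fold change was -0.01 over the Notch genes and -0.11 over the E2f partners. By the adjusted p-value at any fold, 2 Notch genes were higher and 4 lower. The same counts were 3 and 4 for E2f partners and 2 and 9 for relatives.

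In sperm, 60 genes of the same lists were tested, 6 were upregulated and none was downregulated, where 7.59% of all genes were upregulated, with a median log2 fold change of -0.04. They were Foxj1 (log2 fold change 2.11), Rfx4 (1.29), Rfx1 (1.21), Plk1 (1.47), a mitotic kinase that also works in centriole release, Sass6 (1.27) and Mybl2 (1.15), a relative of Myb. Foxj1 stood at 11.3, 6.37 and 8.65 CPM in WT and 49.7, 47.9 and 16.1 CPM in Xap5l KO sperm (adjusted p = 0.0177 in edgeR), so all Xap5l KO libraries were above all WT libraries. The count of 6 did not hold when certain libraries were left out. Leaving out any of WT replicates 2 and 3 and Xap5l KO replicates 1 and 2 took it to 0, with an edgeR adjusted p for Foxj1 between 0.0502 and 0.09, and leaving out Xap5l KO replicate 3 took it to 11. The log2 fold change of Foxj1 lay between 1.86 and 2.55 with 1 library left out. Foxj1 was higher in Xap5l KO sperm by the main test, while of the 10 genes known to act before or beside it 7 could be tested and none passed. The difference between these 2 outcomes was not tested.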

How the data were processed

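Poly(A) RNA-seq was analysed from 12 libraries, 3 for each genotype of sperm and of testes, grouped by the sample labels. The authors sequenced paired-end reads of 150 bases, mapped them to GRCm38 with HISAT2 and used StringTie for assembly. The deposited values are whole-number counts, 1 table for each tissue. FastQC 0.11.2, Trimmomatic 0.36, HISAT2 2.1.0 and DESeq2 1.12.4 stand in the submitters' processing notes. The counting tool, the use of strand and the treatment of reads that map to several genes are not given in the sources used here. The testis table holds 32209 values of 0 but 603 of 1 and 1500 of 2, and that of sperm has 133513, 12330 and 13639. Of values from 1 to 20, 56.05% were even in testes and 54.67% in sperm, so low values may not each be 1 read, and the genes that rest on them carry that limit.

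Each table was filtered with filterByExpr, scaled by TMM and fitted in edgeR (quasi-likelihood F-test, genotype as the only term, Benjamini-Hochberg adjustment over all genes tested). Calls needed an adjusted p under 0.05 and more than a 2-fold change. Standard errors belong to log2 fold changes. P-values set the difference between genotypes against the spread between the 3 samples of each group, which the model estimates with the help of all genes. Biological variation between replicates was larger in sperm (common coefficient 0.287) than in testes (0.174). Exon lengths and positions came from GENCODE. Named were all 10 genes, the 2 targeted genes, called genes of the pathway lists (at most 5 per list and comparison), the leading gene of each marker list whose sum is given, and the 3 genes most like each member above background in all groups (Pearson's r of log2 CPM with 0.5 added). Genes of the chromosome 13 neighbourhood, the listed genes Actn3 and Ahsg, and the miRNAs were named after their values were seen. The members and lists were chosen with earlier results of these data known. Alternatives were DESeq2, RLE size factors, library size alone, no filter, at least 10 counts in every library, a replicate block, no fold threshold, unadjusted p-values, other backgrounds and leaving out each library. The fits were tested on simulated data with 200 genes changed 4-fold, of which 190 were called in sperm and 194 in testes. The changed genes were drawn from well-counted genes, so that check does not cover genes with few counts. Versions were edgeR 4.0.16, DESeq2 1.42.0 and limma 3.58.1 in R 4.3.3, and pandas 2.3.3, scipy 1.17.1 and matplotlib 3.10.9 in Python 3.11.15.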

Additional observations from a re-analysis of the deposited data

How the results depend on the processing

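The 0 called among the 10 genes in sperm was 0 under every alternative run. The 4 called in testes became 2 with at least 10 counts in every library, since that filter removed Cdc20b and Deup1, and ranged from 3 to 4 with 1 library left out. DESeq2 called 5, with Gmnc added. The 6 list genes called in sperm became 10 without a fold threshold and ranged from 0 to 11 with 1 library left out, and the 16 called in testes became 40 without a fold threshold. The genes above background went from 4 to 7 in both sperm groups with olfactory receptor genes and 7 with the median of the 35 genes (added after seeing the data) as the bar, and from 2 to 7 and 5 in both testis groups. In testes the olfactory receptor bar was 0 CPM per kb, so a gene needed only more than 3 counts in each library to pass it. Of 176 alternative values of single genes, 165 kept their direction and side of the threshold, 4 lost a call (Ccno in testes), 2 gained one (Gmnc in testes) and 5 changed sign. The sign changes were in sperm with 1 library left out, where Ccno ranged from -0.32 to 0.08, E2f4 from -0.35 to 0.35 and Deup1 from -0.07 to 0.67, and the cause was not tested. Among list genes, Foxj1 lost its call without any 1 library in testes. With a replicate block the 10 genes gave 4 calls in testes and 0 in sperm, and the sperm lists 2 calls, Foxj1 and Sass6, in place of 6. The labels do not say whether replicate numbers pair the samples. Deviations from the group means of same-numbered WT and mutant samples had correlations of 0.166, -0.024 and -0.122 in sperm and 0.007, -0.03 and -0.034 in testes. Differently numbered samples had correlations between -0.179 and 0.241 in sperm and between -0.062 and 0.083 in testes. Counts of 60 or fewer per library limit Gmnc, Mcidas, Trp73 and Myb in testes and Gmnc, Mcidas, Trp73, Foxn4 and Cdc20b in sperm. The called genes share this limit in Xap5 cKO testes, where it holds for Cdc20b, Deup1 and Foxn4 in every library and for Ccno in replicate 3.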
